A study of Mus musculus with 2 samples.

Results

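Among 16840 assembled transcripts of mouse spleen that matched no annotated long non-coding RNA (lncRNA), 381 carried the class code x, a code that the transcript comparison tools used with StringTie give to a transcript overlapping an exon of a known gene on the opposite strand. Each was listed with the name of that gene, called its partner here, and the 381 transcripts fell on 292 partner names and 353 loci. One library came from mice with collagen-induced arthritis (CIA), an autoimmune joint disease raised by injecting type II collagen. The other came from healthy mice without treatment. The titles place both groups at day 40, whereas a treatment label says that the immunized mice were killed 42 days after their first injection. RNA of spleen cells was extracted with TRIzol and depleted of ribosomal RNA. Strain, age and the number of mice behind a library are not stated in the labels. With 1 library per group there is no spread between replicates, no test was possible, and every comparison below is between these 2 libraries. Levels are FPKM, fragments per kilobase of transcript and 1000000 fragments, with the deposited 0.0001 read as 0, and the depth behind them is unknown. Of 10 lncRNAs of blood-forming and lymphoid tissue checked against the spleen label, 9 were in the annotated table and 8 had at least 0.5 FPKM in either library. None of them defines a single cell type.

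An antisense transcript is copied from the strand opposite to another gene, so that its RNA can pair with that of the partner over the shared exon. Such RNAs arise at many mammalian genes. Some begin at the promoter of the partner and run away from it, others run through its end or lie wholly within it. Known antisense RNAs act on their partners in different ways, by changing chromatin, by interfering with transcription or by pairing with the RNA, and many have no known role. In sequencing without strand information, the strand of an assembled transcript is read from the bases at its splice sites, so short or unspliced antisense RNAs are the hardest to place.

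The label was checked against the GENCODE M21 annotation on GRCm38, the build with which the coordinates of all 15172 annotated transcripts agreed. The span of 241 transcripts, from first to last base, held an exon of an opposite-strand gene, and for 236 this was the named partner. The other 140 held none. All 140 lay wholly inside the span of a gene on their own strand, as did 23 of the 241. They lay between 1 and 281254 bases from the nearest opposite-strand exon, with a median of 3643 bases. Of these 140, 114 had 1 exon and 26 had 2. These 140 are therefore named by their class code only, and values are given for both sets. None of the 381 had an exon of a same-strand gene in its span.

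In structure the class code x transcripts differed from the assembled transcripts inside introns and between genes. A strand was given for all 381, as an opposite-strand code requires. It was given for 25% of class code i transcripts inside introns, 12.5% of class code u transcripts between genes and 29.6% of all assembled transcripts. Of the 381, 130 had 1 exon, 227 had 2, 18 had 3 and 6 had 4. Multi-exon transcripts made up 65.9% of them, against 7.2% of class i and 5.5% of class u. Class j transcripts share a splice junction with a known gene, and class o transcripts overlap one on the same strand. In both classes 100% had a strand and 100% were multi-exon. The median length of the 381 was 872 bases, with a range from 202 to 31781. The plus strand held 226 and the minus strand 155. Partners were protein-coding genes for 262, lncRNA genes for 72, pseudogenes for 20, immunoglobulin segments for 14 and genes of small structural RNAs or microRNAs for 9. The partner names of the other 4 were not in GENCODE. By position, 233 lay inside the partner, 68 ran over its end, 45 ran over its start and 31 spanned it whole.

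The exon boundaries of these transcripts are not in the deposited tables. For the 227 with 2 exons, however, the gap between the exons is the span less the length. It ran from 20 to 298411 bases, being under 100 bases in 42, at most 50 bases in 27 and over 20000 bases in 81. In 48 the span reached over 3 or more opposite-strand genes. Bases at both ends of the gap could be compared in annotated exons for 54 of the 227. Copies were sought only for gaps of at least 100 bases. In 24 of the 54 a second copy of the sequence, with at least 90% identity over at least 50 bases, lay at the gap distance. In 23 the distance between the copies equalled the gap to the base, and in the Lyz2 transcript it was 10461 against a gap of 10462 bases. Identities ran from 91.9% to 100%. Most of the other 30 had gaps under 100 bases and were not searched, so 24 of 54 is not a share of those searched. Of the 30, those searched without a copy found were at Rnu1a1, Rdm1, Nemf, Malat1 and Gm42732, and MSTRG.16517.1 at H2-DMb2. Of these 30, 8 held an identical run of at least 20 bases at the gap distance. The other 22 held runs of 2 to 15 bases, and the limit of 20 was chosen after the values were seen. Whether these gaps are introns of an RNA was not tested.

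**Figure D1:**
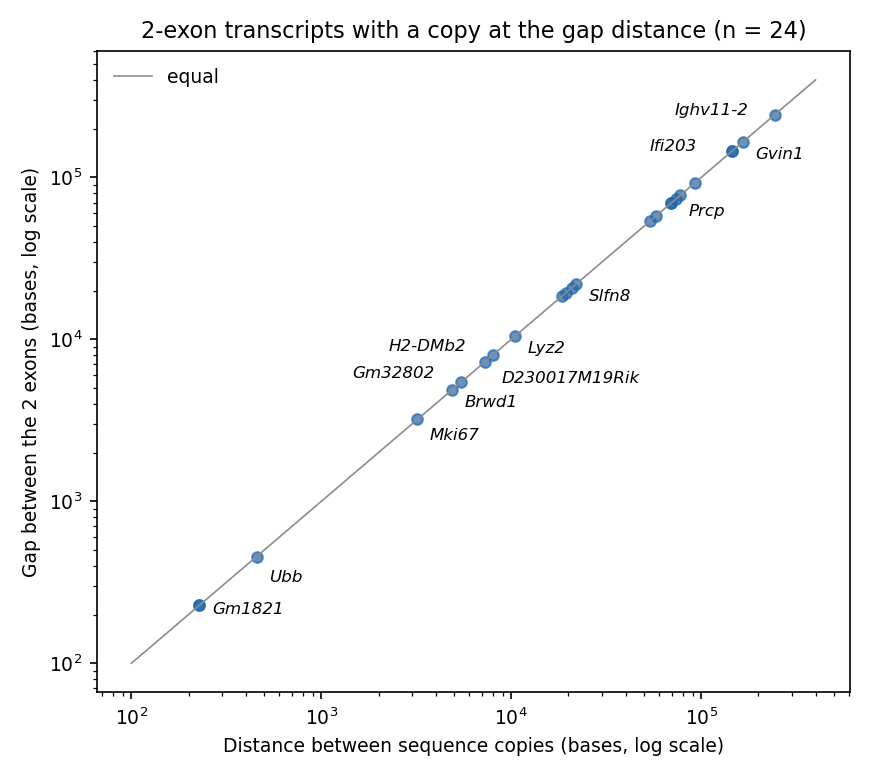
Gap between the 2 exons against the distance between the sequence copies in the same span, both in bases on log axes, for the 24 transcripts with a copy at the gap distance. The points, chosen for a distance within 10 bases of the gap, run from 228 bases at Ubb and Gm1821 to 244485 bases at the immunoglobulin heavy chain locus.

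The copies of 4 such pairs are shown on the strand of the partner, as the bases that stand at both ends of a gap. In each pair capitals mark the bases at which the copies differ. Sequences are those of GENCODE M21 transcripts on GRCm38. Ubb encodes ubiquitin as a string of head-to-tail repeats, and the gap of its transcript MSTRG.5796.2 was 228 bases, the length of a repeat. The 228 bases shown differ at 5 positions.
Ubb repeat (chr11:62552210-62552437, plus strand): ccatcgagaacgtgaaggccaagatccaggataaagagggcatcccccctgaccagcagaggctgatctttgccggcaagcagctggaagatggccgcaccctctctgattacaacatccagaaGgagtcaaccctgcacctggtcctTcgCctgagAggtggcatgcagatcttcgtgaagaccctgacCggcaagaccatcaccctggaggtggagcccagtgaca
Ubb next repeat (chr11:62552438-62552665, plus strand): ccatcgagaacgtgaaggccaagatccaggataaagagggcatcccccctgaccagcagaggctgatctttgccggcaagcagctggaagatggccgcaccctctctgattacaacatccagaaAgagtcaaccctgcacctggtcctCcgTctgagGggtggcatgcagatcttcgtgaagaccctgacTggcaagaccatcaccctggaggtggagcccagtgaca
Mki67 encodes the proliferation marker Ki-67, whose large exon is built of repeats. The gap of MSTRG.35257.1 was 3204 bases, and the first 160 bases of its copies differ at 10 positions.
Mki67 first copy (chr7:135696347-135696506, minus strand): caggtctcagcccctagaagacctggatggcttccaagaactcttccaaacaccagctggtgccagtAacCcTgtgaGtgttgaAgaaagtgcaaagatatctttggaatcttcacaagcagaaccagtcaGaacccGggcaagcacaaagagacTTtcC
Mki67 second copy (chr7:135699551-135699710, minus strand): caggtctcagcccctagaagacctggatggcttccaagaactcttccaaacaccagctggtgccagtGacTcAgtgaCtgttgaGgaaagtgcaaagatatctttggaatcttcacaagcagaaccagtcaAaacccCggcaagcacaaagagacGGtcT
In the heavy chain locus, MSTRG.9268.1 reached from Ighv14-1 to Ighv14-4, variable segments of the same family 244485 bases apart, which differ at 5 of the 150 bases shown.
Ighv14-1 (chr12:113931958-113932107, minus strand): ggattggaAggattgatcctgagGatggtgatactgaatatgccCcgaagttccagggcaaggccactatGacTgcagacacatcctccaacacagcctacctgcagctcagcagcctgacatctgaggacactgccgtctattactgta
Ighv14-4 (chr12:114176443-114176592, minus strand): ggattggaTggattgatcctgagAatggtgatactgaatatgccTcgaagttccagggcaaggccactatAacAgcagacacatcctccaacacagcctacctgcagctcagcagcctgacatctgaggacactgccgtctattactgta
In the interferon-inducible gene cluster of chromosome 1, MSTRG.2474.1 reached from the pseudogene Ifi203-ps to Ifi203, 146081 bases apart, which differ at 2 of the 150 bases shown.
Ifi203-ps (chr1:173782851-173783000, minus strand): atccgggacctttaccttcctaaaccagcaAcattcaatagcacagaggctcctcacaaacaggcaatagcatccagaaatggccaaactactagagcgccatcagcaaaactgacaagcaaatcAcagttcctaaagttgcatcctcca
Ifi203 (chr1:173928932-173929081, minus strand): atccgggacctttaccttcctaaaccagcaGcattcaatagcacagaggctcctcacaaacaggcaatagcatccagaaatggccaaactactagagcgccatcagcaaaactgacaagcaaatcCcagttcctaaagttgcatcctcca

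Sfr1 was among the 8 with such an identical run, and its gap was too short to be searched for copies. It holds tandem units of 48 bases, and its transcript MSTRG.19925.1 had a gap of 48 bases with an identical run of 70 bases and 84.5% identity over all bases at that distance. Its level was 3.53 FPKM in CIA and 3.92 FPKM in healthy spleen. Capitals mark the bases that differ from the first unit shown.
Sfr1 unit (chr19:47732692-47732739, plus strand): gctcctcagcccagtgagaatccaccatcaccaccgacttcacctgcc
Sfr1 next unit (chr19:47732740-47732787, plus strand): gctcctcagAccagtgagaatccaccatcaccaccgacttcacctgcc
Sfr1 unit after that (chr19:47732788-47732835, plus strand): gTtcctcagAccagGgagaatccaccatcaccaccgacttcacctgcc

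The start of the antisense transcript fell within 500 bases of the start of the partner in 20 cases, and 13 of these covered it. At Wdr26, which encodes a subunit of a ubiquitin ligase complex, the 2-exon transcript MSTRG.2628.1 began 13 bases inside the GENCODE start and ran away from the gene. Its span, whose exon boundaries are not known, covered 241 of the 250 bases before the RefSeq start (GRCm38.p6), shown in capitals on the strand of Wdr26.
Wdr26 upstream (chr1:181211979-181212228, minus strand): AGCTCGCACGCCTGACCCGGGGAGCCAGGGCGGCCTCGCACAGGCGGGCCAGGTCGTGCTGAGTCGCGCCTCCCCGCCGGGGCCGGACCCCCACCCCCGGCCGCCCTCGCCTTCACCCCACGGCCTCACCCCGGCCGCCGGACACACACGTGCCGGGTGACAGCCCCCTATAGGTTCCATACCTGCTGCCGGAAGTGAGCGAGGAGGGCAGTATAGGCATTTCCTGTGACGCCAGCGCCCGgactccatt
This head-to-head transcript stood at 1.42 FPKM in CIA against 2.44 FPKM in healthy spleen, the order in which all pairs of values are given below. At Gmeb2, a gene of a transcription factor of glucocorticoid response, the single-exon transcript began 32 bases inside and stood at 3.14 against 1.68 FPKM. At the phosphatase gene Plpp3, the transcript began 442 bases inside and stood at 1.03 against 1.06 FPKM. These 3 transcripts did not share a direction.

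Of the 381 transcripts, 376 had at least 0.5 FPKM in either library and 5 did not, those named for Gch1, Coro7, Gm26904, Tnfrsf14 and Gpr146. At 0 were 9 in the CIA library and 8 in the healthy library, of which 3 were at 0 in both. Ratios are given as log2((CIA FPKM + 0.1)/(healthy FPKM + 0.1)), which understates the difference of low transcripts. The median log2 ratio of the 376 was 0.33, with quartiles of -0.11 and 0.68, beside 0.26 for all assembled and 0.30 for all annotated transcripts. Higher in the CIA library by at least 2-fold were 58, or 15.4%, beside 17.2% of all assembled and 15.7% of annotated transcripts. At least 2-fold lower were 20, or 5.3%, beside 11.1% of assembled and 6.13% of annotated transcripts. The share higher was thus near the background, and the share lower was near that of annotated transcripts and under that of assembled ones. Of the 2-fold apart, 74.4% were higher, and after centring on the annotated median 50% were, with 33 higher and 33 lower. The median level was 3.94 against 3.34 FPKM.

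**Figure D2:**
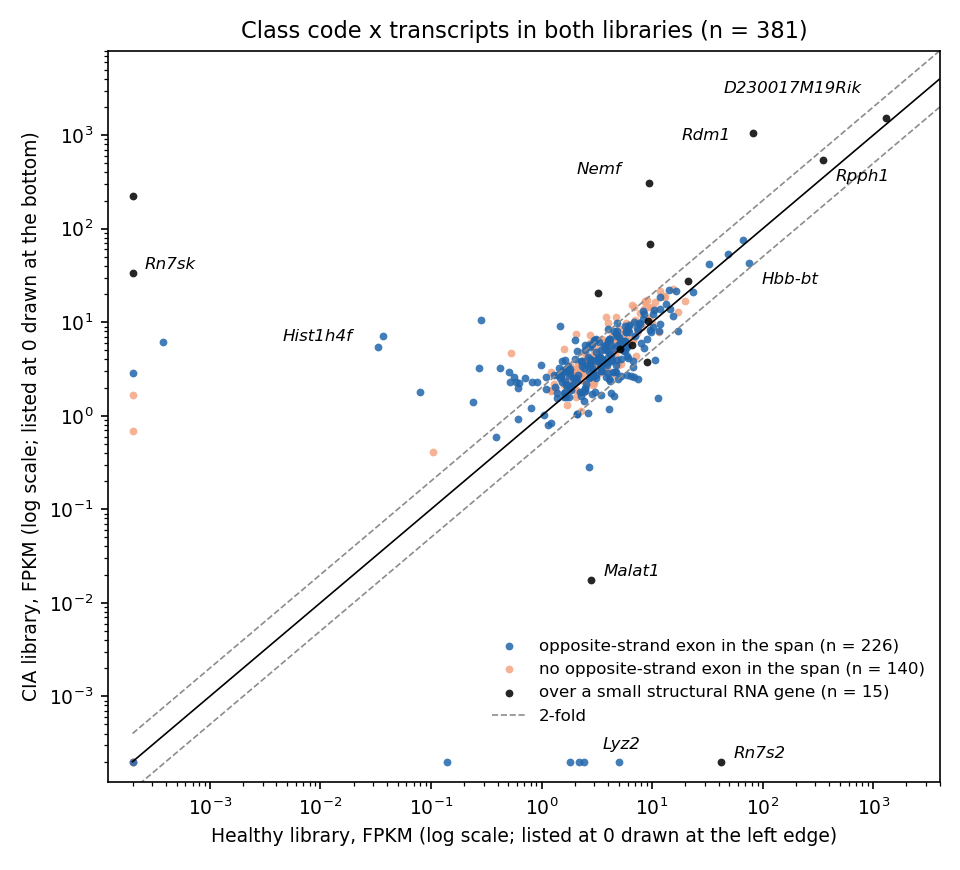
FPKM of the 381 class code x transcripts in the CIA library (vertical) and the healthy library (horizontal), on log axes, with those listed at 0 drawn at the edge, the line of equality and dashed lines at 2-fold. Colours part those with and without an opposite-strand exon in the span and those over a gene of a small structural RNA. Most points lie between the dashed lines, and the points farthest from them in level and ratio include those at Rdm1, Nemf, Rn7s2 and Rn7sk.

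The 2-fold apart transcripts were unevenly spread over the sets. Of the 239 past the filter with an opposite-strand exon, 42 were higher and 20 lower, with a median of 0.30. Of the 137 without one, 16 were higher and 0 lower, with a median of 0.45. Of 127 single-exon transcripts, 13 were higher and 0 lower, and of 249 multi-exon transcripts 45 were higher and 20 lower. All 20 lower transcripts were therefore multi-exon ones over an opposite-strand exon. By type of partner, the median was 0.23 for the 258 with a protein-coding gene, 0.55 for the 71 with an lncRNA, 0.52 for the 20 with a pseudogene and 0.99 for the 14 with an immunoglobulin segment. It was 0.17 for the 9 with a small structural RNA or microRNA gene and -0.72 for the 4 whose partner was not in GENCODE. The 24 with a gap equal to a copy distance had a median of -0.15, with 3 higher and 6 lower. Without these 24 the whole set had 55 higher and 14 lower.

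**Figure D3:**
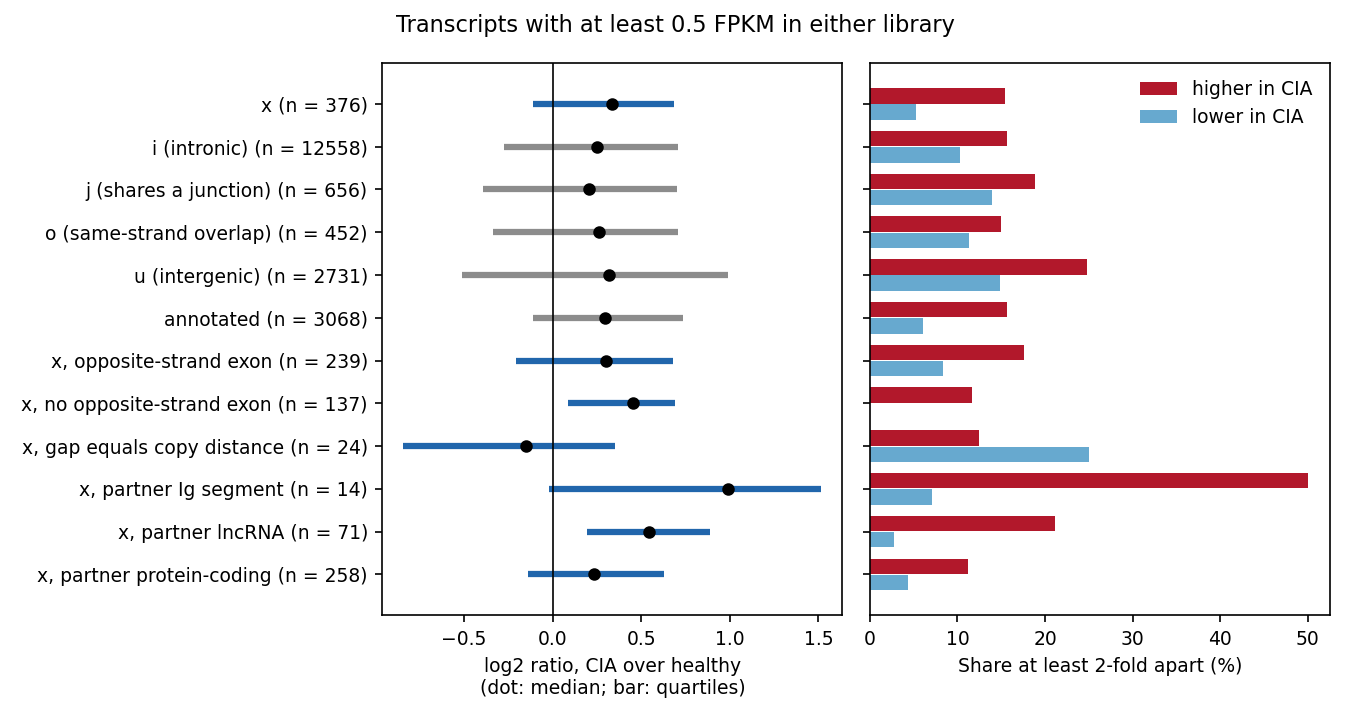
Left, median (dot) and quartiles (bar) of the log2 ratio for the assembled classes, the annotated transcripts and sets of class code x transcripts. Right, share in percent at least 2-fold higher (red) or lower (blue) in the CIA library. The class code x median of 0.33 lies just above those of the other classes and the annotated transcripts, which run from 0.21 to 0.32. The copy-distance set lies below 0 and the immunoglobulin set at 0.99.

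The most abundant transcripts lay over genes of small structural RNAs, the short non-coding RNAs of splicing, protein export and RNA processing. The 5 most abundant held 61.6% of the summed FPKM of all members in the CIA library and 48.7% in the healthy one. MSTRG.865.1, named for D230017M19Rik, ran between the small nuclear RNA genes Gm23472 and Gm24497 and stood at 1513 against 1314 FPKM, with a log2 ratio of 0.20. It was high in both libraries. MSTRG.11961.1 at Rpph1, the RNA of ribonuclease P, stood at 538.5 against 352.5 FPKM, with a gap of 21 bases.

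At Rdm1, a gene of DNA damage response, 2 transcripts ran between the small nuclear RNA genes Gm23849 and Gm24950. MSTRG.7002.1 stood at 1046 against 81.6 FPKM, with a log2 ratio of 3.68. MSTRG.7002.2, with the same ends and a gap of 14285 in place of 14241 bases, stood at 225.8 FPKM in CIA spleen and was listed at 0 in healthy spleen. Both were higher in the CIA library, and their sum gave a log2 ratio of 3.96. MSTRG.6576.1 at Rnu1a1, a gene of the U1 splicing RNA, stood at 20.3 against 3.22 FPKM. MSTRG.39069.1, inside Rn7sk, whose RNA holds the elongation factor P-TEFb inactive, stood at 33.8 FPKM in CIA spleen and was likewise listed at 0 in healthy spleen.

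The signal recognition particle RNA genes Rn7s1 and Rn7s2 showed how such values split within a locus. MSTRG.8307.2, named for Nemf and ending in Rn7s2, stood at 310.4 against 9.38 FPKM, with a log2 ratio of 5.03, and MSTRG.8307.3 at 68.5 against 9.59 FPKM. MSTRG.8307.4, inside Rn7s2, was listed at 0 against 41.8 FPKM. The first pair was thus higher and the last lower in the CIA library. A further transcript of the locus, of class code o, was listed at 0 in the CIA library, and with it the locus summed to 378.9 against 5291 FPKM, a log2 ratio of -3.80. The 266 bases under the transcripts inside Rn7s1 and Rn7s2 were identical. Those at Rn7s1, MSTRG.8271.1 and MSTRG.8271.2, stood at 27.6 against 21.2 and 3.72 against 8.94 FPKM. Over all 15 transcripts above a gene of a small structural RNA, 6 (40%) were higher and 3 (20%) lower, with a median of 0.38. Over all members past the filter the shares were 15.4% and 5.3%. Several of the 15 share a locus, as at Rdm1 and Rn7s2, so they are not separate observations. Without the 15 the whole set had 52 higher and 17 lower.

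Immune genes were next examined by their roles, with partner lists given by counts. Over all members past the filter, 15.4% were higher and 5.3% lower, with a median of 0.33, and most lists held too few transcripts for a share to be read against this. The list of T cell genes matched no member, and partners outside the lists were not sorted by cell type. B cell genes held 16 transcripts of 6 partners, of which 3 were higher and 0 lower, with a median of 0.65. The share of 18.8% higher was near that of all members. Most belonged to H2-DMb2 and H2-DMb1, which encode the beta chain of the H2-DM complex that loads peptides onto MHC class II molecules in antigen-presenting cells. The 9 transcripts at H2-DMb2 stood between 2.74 and 13.5 FPKM in the CIA and between 1.79 and 10.5 FPKM in the healthy library. In 8 of 9 the CIA value was the higher, with log2 ratios from -0.20 to 1.07. A ratio above 0 was found in 69.7% of all members past the filter. The spans of these 9 overlap, so they are not separate observations. All had 2 exons, and 6 of the gaps, from 7981 to 8007 bases, lay within 50 bases of the 7983 bases that part the copies in H2-DMb2 and H2-DMb1. The transcript at H2-DMb1 itself, with a gap of 5983 bases, stood at 6.60 against 3.10 FPKM. At Ciita, the gene of the master activator of MHC class II genes, MSTRG.14396.1 stood at 8.05 against 4.56 FPKM. In a spleen library, a change in the number of cells of a type and a change in RNA per cell cannot be told apart.

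Immunoglobulin segments were the partners of 14 transcripts, all past the filter, of which 7 (50%) were higher and 1 (7.1%) lower. Over all members past the filter the shares were 15.4% and 5.3%. Several of the 14 share a partner. Summed per partner, only Ighd5-8, at a log2 ratio of 1.19, and Igkv4-81, at 1.005, were at least 2-fold higher. The 4 over diversity segments, named for Ighd5-8 and Ighd5-7, stood between 3.49 and 9.72 FPKM in the CIA and between 0.996 and 4.78 FPKM in the healthy library. Their log2 ratios ran from 0.98 to 1.71, and 3 of the 4 were past the 2-fold limit of 1. At that limit, Igkv4-81 at 1.005 lay just inside and Ighd5-7 at 0.975 just outside. Over variable segments the values split between isoforms. MSTRG.9283.2 at Ighv7-3 stood at 6.20 against 0.000378 FPKM, and its isoform MSTRG.9283.1 at 7.999 against 11.6 FPKM. Their sum was 14.2 against 11.6 FPKM, a log2 ratio of 0.29 in place of 5.97. MSTRG.9268.1 at Ighv11-2 stood at 7.11 against 0.0367 FPKM and its isoform at 6.56 against 8.97 FPKM, which brought 5.72 to 0.60. At Iglv3, a light chain segment, MSTRG.14627.10 stood at 0.283 against 2.68 FPKM, MSTRG.14627.11 at 6.45 against 2.01 and MSTRG.14627.9 at 8.75 against 7.31. The 3 members summed to 15.5 against 11.996 FPKM. Each of these 3 sums lay within 2-fold.

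The interferon response list had 11 transcripts, 1 higher and 1 lower, with a median of 0.22. Its only partners were Ifi203, Ifi203-ps and Samhd1, so it does not hold Mndal and is not a survey of such genes. The cluster of Ifi203, Ifi203-ps and Mndal, genes of nucleic acid sensors of the interferon-inducible p200 family, held 15 members, and 13 of its 14 with 2 exons had gaps of at least 60 kb. The 8 named for Ifi203 had log2 ratios from -0.68 to 2.33. The highest, MSTRG.2477.2, stood at 2.96 against 0.508 FPKM, and the lowest, MSTRG.2474.1, whose copies are shown above, at 2.91 against 4.72 FPKM. The 5 named for Mndal had ratios from -0.69 to 0.47, with MSTRG.2470.1 the most abundant at 10.9 against 8.30 FPKM. Summed per partner, Ifi203 had a log2 ratio of 0.27 and Mndal 0.29. MSTRG.22910.1 inside Samhd1, whose product depletes nucleotides and so limits retroviruses, was listed at 0 against 2.18 FPKM. It had a gap of 44 bases.

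The myeloid list held 6 transcripts, 0 higher and 1 lower, with a median of -0.17. MSTRG.4579.1, which reached from Lyz2, the lysozyme gene of myeloid cells, to its copy Lyz1, was listed at 0 against 5.04 FPKM. MSTRG.7297.1, which spans the receptor gene Cd300ld2, stood at 5.25 against 8.39 FPKM. Both were lower in the CIA library, the second by less than 2-fold, and the list did not share this direction. Of the other 2 transcripts at Cd300ld2 one had a log2 ratio of -0.42 and one of 0.08. The transcript at Cd300ld5 stood at 4.21 against 3.36 FPKM and that at the lectin gene Clec2g at 18.7 against 13.02 FPKM. Without the member at 0 the list median was 0.08. At Slfn10-ps, a pseudogene of the Schlafen family outside the list, MSTRG.6440.1 stood at 2.49 against 7.50 FPKM, with a gap of 18460 bases equal to the copy distance.

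At the beta-globin genes, which serve red blood cells, MSTRG.34614.1 ran from Hbb-bt to Hbb-bs and stood at 43.1 against 75.5 FPKM. Its isoform MSTRG.34614.2 stood at 1.55 against 11.3 FPKM. Both were lower in the CIA library, and their sum of 44.7 against 86.8 FPKM had a log2 ratio of -0.96. The erythroid and platelet list as a whole held 3 transcripts, 0 higher and 1 lower.

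The cell cycle list held 3 transcripts, 0 higher and 1 lower, with a median of -0.99. MSTRG.35257.1 at Mki67 stood at 1.75 against 4.29 FPKM, with a log2 ratio of -1.25. MSTRG.1538.1 at Mcm6, a subunit of the replicative helicase, stood at 3.32 against 6.69 FPKM, just within 2-fold at -0.99. Both values were lower in the CIA library, whereas the second transcript at Mcm6 had a log2 ratio of 0.34. At the ubiquitin repeats, MSTRG.5796.2 at Ubb stood at 2.64 against 6.39 FPKM and its isoform MSTRG.5796.1, with a gap of 456 bases, at 11.6 against 15.6 FPKM. Their sum had a log2 ratio of -0.63, within 2-fold. MSTRG.11863.1 at Gm1821, a pseudogene with the same gap of 228 bases, stood at 3.93 against 10.6 FPKM. These transcripts at Mki67, Ubb and Gm1821 all belong to the 24 with a gap equal to a copy distance. Other low transcripts were those at Wrn, the helicase gene of Werner syndrome, at 1.65 against 4.56 FPKM, and at Prex1, an activator of Rac, at 2.59 against 6.88 FPKM with a gap of 76 bases.

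The chromatin and transcription factor list held the most transcripts, 20 of 15 partners, 4 higher and 1 lower, and a median of 0.52. MSTRG.9679.1, over the start of the histone gene Hist1h4f, stood at 5.37 against 0.0333 FPKM. At Arid1a, a subunit of the SWI/SNF remodelling complex, MSTRG.27194.1 stood at 9.08 against 1.46 FPKM and had 3 exons. At Runx1, a transcription factor of blood formation, MSTRG.15502.1 stood at 9.90 against 3.99 FPKM and held no opposite-strand exon. These 3 were higher in the CIA library. MSTRG.27468.2 in the zinc finger gene Zfp984 was listed at 0 against 2.43 FPKM, and all transcripts of its locus summed to 4.23 against 5.18 FPKM. At Brwd1, a bromodomain gene outside the list, MSTRG.15574.1 stood at 3.89 against 1.53 FPKM, with 277 bases of exon repeated without a difference 4860 bases apart.

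**Figure D4:**
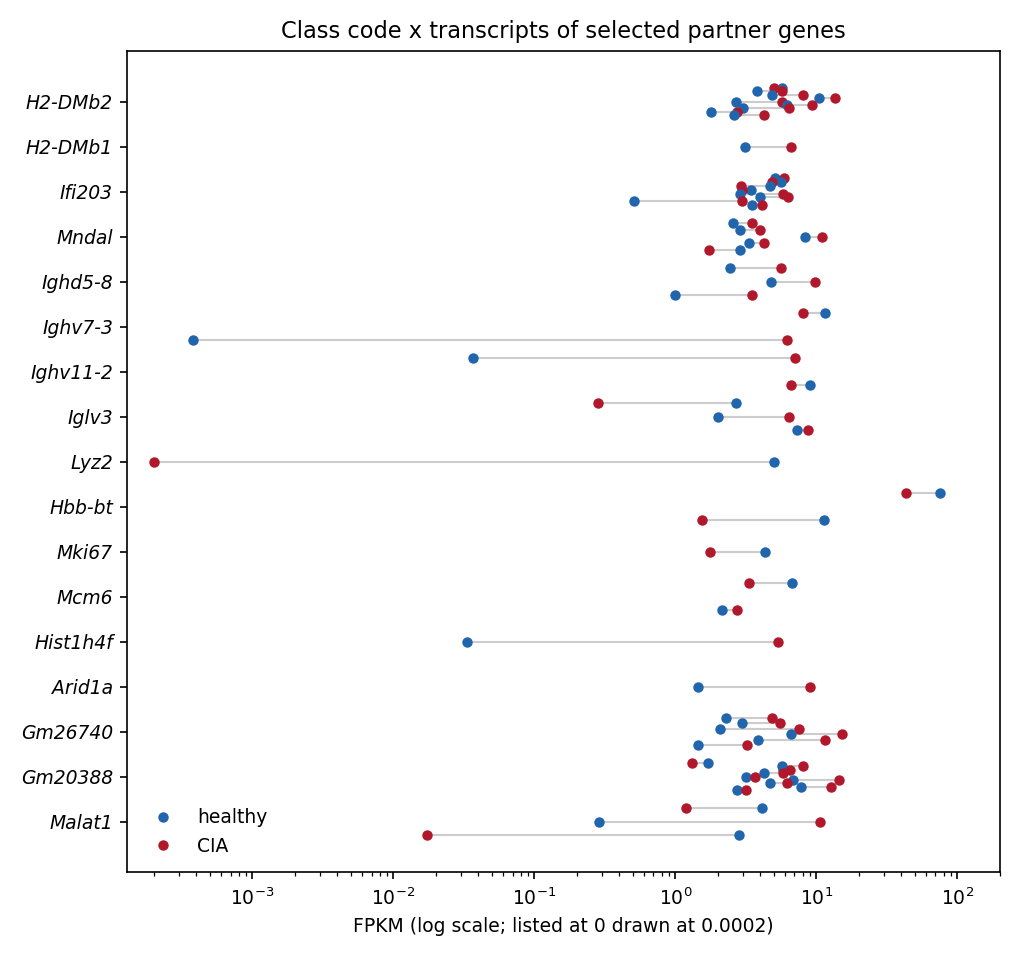
FPKM in the healthy (blue) and CIA (red) library for every class code x transcript of 17 selected partner genes, on a log axis, with 1 line per transcript and those listed at 0 drawn at 0.0002. The transcripts of Gm26740 are all higher in the CIA library, those of Hbb-bt both lower, and those of Ighv7-3, Iglv3 and Malat1 run in opposite directions within a partner.

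The other partner lists held few transcripts that were 2-fold apart. RNA processing and translation genes had 7 transcripts and ubiquitin and proteasome genes 7, with 0 higher and 0 lower in both, and medians of -0.18 and 0.17. Cytokine, receptor and signalling genes had 4 past the filter, with 0 and 0 and a median of 0.33. Membrane traffic and small GTPase genes had 11, with 1 higher and 0 lower, and a median of 0.31. The higher one lay inside Rassf5, a Ras effector of lymphocyte adhesion, at 6.18 against 2.997 FPKM. Mitochondrial and metabolic genes had 3, with 1 higher and 0 lower, where the transcript over Acsf2, an acyl-CoA synthetase gene, stood at 1.98 against 0.611 FPKM. That at Ndufa12, a subunit of respiratory complex I, stood at 1.81 against 3.04 FPKM.

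For lncRNA partners the antisense values could be set beside the sense values of the annotated table. Of 51 such partners, 42 had both strands past the filter, with the antisense level, summed over transcripts, higher than the sense level in both libraries in 26 and lower in both in 10. Median log2 ratios were 0.54 for the antisense and 0.34 for the sense transcripts. The ratios lay less than 1 apart in 35 partners and 1 or more apart in 7. These sums took in members without an opposite-strand exon, such as 5 of 6 at Gm26740, which is among the 7. At D230017M19Rik the antisense level of 1513 against 1314 FPKM was that of the transcript between small nuclear RNA genes. Its sense gene stood at 0.98 against 0.78 FPKM. In Gm15674 both strands had the higher value in the CIA library, at 17.2 against 8.96 FPKM antisense and 34.0 against 18.6 FPKM sense. In AU020206 the values parted, as the antisense transcript stood at 1.42 against 0.238 FPKM and the sense gene at 62.3 against 63.5 FPKM. At Mir142hg, the host gene of the blood cell microRNA miR-142, the antisense transcript stood at 42.1 against 32.6 FPKM, while the annotated sense transcript was listed at 0 against 14.3 FPKM. At AI504432 the antisense transcript stood at 5.199 against 1.58 FPKM and the sense gene at 6.71 against 5.44 FPKM. Whether reads of both strands were separated is not stated, so values of a sense and antisense pair may share reads.

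Malat1, the abundant nuclear lncRNA, had 3 antisense transcripts. MSTRG.19021.1 and MSTRG.19021.2 ran over its end, and MSTRG.19024.1 lay inside it. MSTRG.19021.2 stood at 10.6 against 0.287 FPKM, MSTRG.19021.1 at 1.18 against 4.09 FPKM and MSTRG.19024.1 at 0.0175 against 2.82 FPKM. The first was higher and the others lower in the CIA library. Their sum was 11.8 against 7.20 FPKM, a log2 ratio of 0.70, beside 2185 against 1798 FPKM for the sense gene.

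**Figure D5:**
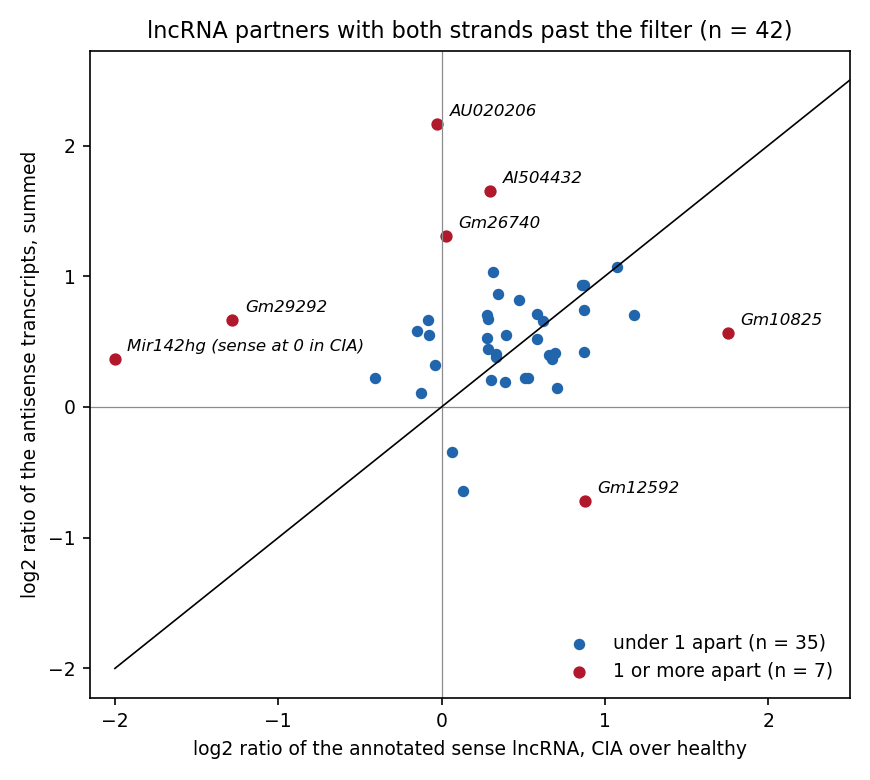
Log2 ratio of the summed antisense transcripts against that of the annotated sense lncRNA for 42 lncRNA partners, with the line of equality. Red points mark the 7 partners whose ratios lie 1 or more apart, and Mir142hg, whose sense transcript is listed at 0 in the CIA library, is drawn at the left edge.

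The 140 transcripts without an opposite-strand exon lay inside 110 genes, or sets of overlapping genes, on their own strand. For 55 of them past the filter, in 35 host genes, the table also held class code i transcripts of that host. These 55 had a median log2 ratio of 0.44, the host medians a median of 0.20, and 33 of the 55 lay above their own host. At Gm26740 the values were high throughout. All 6 transcripts named for it had a higher CIA value, with log2 ratios from 0.86 to 1.81, and 5 of 6 were at least 2-fold higher. Over all members past the filter, 69.7% had a ratio above 0 and 15.4% were at least 2-fold higher. MSTRG.3162.1 stood at 15.3 against 6.65 FPKM and MSTRG.3166.1 at 11.5 against 3.86 FPKM. Of these 6, 5 held no opposite-strand exon and lay on the strand of H60b and Raet1e, genes of stress-induced ligands of the NK cell receptor NKG2D. The annotated sense lncRNA Gm26740 itself stood at 19.4 against 19.03 FPKM. MSTRG.3170.1, on the other strand inside Gm26740 and named for Raet1e, stood at 1.68 FPKM in CIA spleen and was listed at 0 in healthy spleen.

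Further groups of this kind were read in the same way, and are shown because several transcripts share a host. The 9 named for Gm20388, a readthrough gene of chromosome 8, had log2 ratios from -0.35 to 1.08. Of these, 8 of 9 were higher in the CIA library, beside 69.7% of all members past the filter. The 3 without an opposite-strand exon that were named for Ankrd11, a chromatin regulator gene in the same region, stood between 10.6 and 14.4 FPKM in the CIA and between 4.71 and 9.09 FPKM in the healthy library. The 3 at Bank1, a scaffold gene of B cell receptor signalling, had ratios from 0.54 to 0.66, and the 3 at the transporter gene Abcb10 from -0.21 to -0.02. The 2 named for Angptl1 lay inside Ralgps2, and stood at 16.8 against 8.66 and 13.9 against 10.5 FPKM.

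The largest ratios were also set beside the sums of their loci. Among the 24 transcripts of highest ratio, lowest ratio or listed at 0 in 1 library, 12 shared their locus with other transcripts. After summing all transcripts of the locus, 5 of these 12 were 2-fold apart in the same direction, 5 lay within 2-fold and 2 were 2-fold apart in the opposite direction, MSTRG.8307.2 and the Malat1 transcript MSTRG.19021.1. Cmip, a signalling adaptor gene, kept its direction, with MSTRG.37448.1 at 3.25 against 0.271 FPKM and the locus at 14.7 against 3.64 FPKM. The other 12 were alone in their locus. Among these were MSTRG.10924.1 at Naip6, a gene of the NAIP family of inflammasome receptors, at 1.81 against 0.0802 FPKM, and MSTRG.37097.1 at the pseudogene Gm8730, at 2.85 FPKM in the CIA library and 0 in the healthy one.

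In the authors' deposited table, 10 of the 381 transcripts had a p below 0.05 with the CIA value higher and 2 with it lower, beside 1.32% and 0.534% of all assembled transcripts. The authors' deposited table marked 33 higher and 6 lower as significant, beside 5.4% and 0.909% of all assembled transcripts. For 7 higher and 0 lower transcripts the q in the authors' deposited table was below 0.05. The p in the authors' deposited table was 1 for 84 transcripts, of which 67 had 2 or more exons, and for 44 of the 78 that were 2-fold apart. In these 84 the lower of the 2 FPKM values, multiplied by length, had a median of 444.2. The lowest such product with p below 1 was 889.9, and 3 of the 84 reached it. What a p of 1 stands for is not stated, so it is not read as a finding of no difference. The method behind these p-values and the mark of significance is not given in the sources used here, and they compare 2 libraries. The mark was also given where neither p nor q was below 0.05, as for the transcript inside Rassf5. For MSTRG.7002.1 at Rdm1 the p in the authors' deposited table was 8.89e-07, and for MSTRG.7002.2 it was 1.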

How the data were processed

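FPKM values of 1 CIA and 1 healthy spleen library were deposited by the authors per transcript in 2 tables, per the file headers, with 0.0001 in place of 0. The ratio (fold) column deposited by the authors equalled CIA over healthy FPKM for all 381 members within a relative tolerance of 0.0001, and the log2 column is its logarithm, per the file headers. Each p-value or q-value comes from the deposited table and is only quoted. StringTie is named in the submitters' processing notes. For the aligner, build, strandedness and test, nothing is given in the sources used here. FPKM keeps no counts, so depth is unknown and no interval can be given.

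Members were the transcripts with class code x. A pseudocount of 0.1 FPKM, a filter of 0.5 FPKM in either library and a size rule of 2-fold were used. Exons came from GENCODE M21, and sequence copies within spans were sought with blastn 2.17.0 in annotated exons only. They were sought within 10 bases of the gap, for gaps of at least 100 bases. Alternatives were other pseudocounts, filters, centring, sums per partner, a 4-fold rule and subsets of members. The members and the 12 partner lists were chosen with earlier results of these data known. Named were, by rule, the 8 of highest and 8 of lowest ratio among those reaching 1 FPKM and above 0 in both libraries, the 5 most abundant, the 4 most abundant at 0 in each library, the 5 partners with most members and 2 per list. Of the transcripts named by this rule, 1 is not reported here, and some of the list transcripts are given only within their counts. Chosen after their values were seen were Arid1a, Brwd1, Ciita, Gmeb2, Plpp3, Runx1, Sfr1, Ubb, Wdr26, the sense and antisense pairs and the groups without an opposite-strand exon other than Gm26740 and Gm20388. Python 3.11.15, numpy 2.4.6, pandas 2.3.3 and matplotlib 3.10.9 were used.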

Additional observations from a re-analysis of the deposited data

How the results depend on the processing

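No paired analysis was possible because there was 1 library per group. Against 58 higher and 20 lower, a pseudocount of 1 FPKM left 31 higher, centring on the annotated median gave 33 higher and 33 lower, sums per partner gave 35 and 12 of 288 partners, and the 4-fold rule gave 21 and 8. Fewer values are tested per partner, and the 4-fold rule is narrower by construction. Summing per partner turned 9 of the named transcripts from a negative to a positive ratio. Of these, 3 had been 2-fold lower, MSTRG.14627.10 at Iglv3 (to 0.37) and MSTRG.19021.1 and MSTRG.19024.1 at Malat1 (to 0.70), and 6 within 2-fold, at Ifi203, Mndal, H2-DMb2 and Gm20388, went to between 0.27 and 0.56. Centring turned 7 named transcripts, all within 2-fold. The median over all members and the median of each partner list stayed within 1.5-fold of their main values under all settings tried for them. Centring, which subtracts the annotated median of 0.30 from every transcript, nevertheless put the interferon, ubiquitin and mitochondrial medians below 0, at -0.08, -0.13 and -0.26, and with members above 0 in both libraries only, the myeloid median was 0.08. Leaving out the copy-distance members or those over structural RNA genes was added after seeing the data. Without replicates, no spread limits any single value.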
